A study of Mus musculus with 8 samples.

Results

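The NK receptor gene complex was examined in peak lists from 4 ATAC-seq libraries of mouse DN3 thymocytes, an immature T-cell stage named for lacking CD4 and CD8. ATAC-seq marks open chromatin by the insertion of adapters with a transposase. Members were the protein-coding genes whose symbols begin with Klr, Clec2 or Clec1 and that lie within a 3.5 Mb interval of chromosome 6 (mm10). The rule gave 36 of 21883 protein-coding genes. They stretch over 2.64 Mb, from Klrb1a to Klra2. The tested cells were C57BL/6 DN3 thymocytes with homozygous mutations of GATA sites 1 and 2 in NMe, the Notch-Myc enhancer (mutant, n = 2 libraries). The others were C57BL/6 DN3 thymocytes with wild-type NMe (wild type, n = 2 libraries). The labels do not give the age or sex of the mice, or whether replicates came from separate animals, so p-values measure only the spread between these libraries. The 4 leukaemia samples of the series were not analysed here. Peak lists carry no read sequence, so the mutated sites themselves could not be checked.

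This complex encodes lectin-like receptors of natural killer (NK) cells and some of their ligands. Ly49 receptors (Klra genes) bind classical MHC class I molecules, and CD94/NKG2 receptors (Klrd1 with Klrc genes) bind the class Ib molecule Qa-1. Most Ly49 receptors are inhibitory, and in NK cells each is made by only some of the cells. NKR-P1 receptors (Klrb1 genes) recognise Clr proteins, which are encoded by the Clec2 genes interspersed with them. T-cell precursors and NK cells share early progenitors, and some T cells also carry these receptors.

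Each library had its own list of peaks. A peak was counted for a gene when it touched the gene body or the 5 kb on either side, called the window below. The start is the annotated transcription start, and a start was called open when a peak came within 1 kb of it. For 4 members without a start in the table used, Clec2f, Clec1a, Klrd1 and Klri2, both annotated gene ends were used instead. A region is the merged stretch of overlapping peaks from the 4 lists. The lists do not give depth. A gene without a peak was therefore not detected as open in that library, which does not show that it was closed. Fold enrichment is the value the authors' caller gave each peak over its local background, and it describes peaks within a list.

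Few starts in the complex were open, and promoters of some of those that were are printed here. The start was open in 7 and 7 of 36 members in the mutant libraries, against 10 and 7 in the wild-type libraries. Over all protein-coding genes the start was open in 67.5% and 67.9% in mutant and in 71% and 70.2% in wild type. Of the members, 6 had an open start in all 4 libraries, where 66.8% of all genes did. They were Clec2d, Clec12a, Clec2i, Klrb1c, Klra1 and Clec1a, the last by a peak at either annotated gene end. Its left end, which overlaps Clec12b, had a peak in every library, and its right end in every library but mutant 2. Which end holds the Clec1a start is not given. The promoters of the first 5 genes listed are printed from RefSeq (GRCm38.p6), with 250 bases before and 50 from the start onward. That of Klra3, chosen after the values were seen, is added as a Ly49 promoter without a peak. Capitals mark matches, on either strand, to 6 motifs of transcription factors known from T and NK cells. They are GATAA for GATA factors, TGTGGT for Runx factors, AGGAAG for Ets factors, CAGCTG for E proteins, TCAAAG for the Tcf and Lef factors and TCACAC for the T-box factors.
Clec2d, chr6:129180365-129180664, plus strand: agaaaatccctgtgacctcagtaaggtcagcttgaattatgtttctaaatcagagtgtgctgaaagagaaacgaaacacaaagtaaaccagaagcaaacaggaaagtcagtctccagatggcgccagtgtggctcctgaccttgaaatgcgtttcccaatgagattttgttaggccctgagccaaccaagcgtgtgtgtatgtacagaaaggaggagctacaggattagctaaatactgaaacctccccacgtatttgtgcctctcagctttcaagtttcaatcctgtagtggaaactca
Clec12a, chr6:129349994-129350293, plus strand: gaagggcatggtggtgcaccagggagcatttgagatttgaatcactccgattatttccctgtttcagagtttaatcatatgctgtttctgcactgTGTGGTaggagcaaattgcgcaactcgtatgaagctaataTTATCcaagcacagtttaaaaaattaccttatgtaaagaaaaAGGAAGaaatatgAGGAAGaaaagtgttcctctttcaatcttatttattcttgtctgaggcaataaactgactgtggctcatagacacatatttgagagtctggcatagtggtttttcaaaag
Clec2i, chr6:128887337-128887636, plus strand: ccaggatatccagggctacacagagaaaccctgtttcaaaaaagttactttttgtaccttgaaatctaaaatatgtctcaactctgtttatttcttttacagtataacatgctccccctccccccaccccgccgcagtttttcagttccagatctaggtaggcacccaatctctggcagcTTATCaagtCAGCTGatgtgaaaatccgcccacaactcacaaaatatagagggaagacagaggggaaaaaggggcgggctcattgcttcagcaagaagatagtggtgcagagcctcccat
Klrb1c, chr6:128788592-128788891, minus strand: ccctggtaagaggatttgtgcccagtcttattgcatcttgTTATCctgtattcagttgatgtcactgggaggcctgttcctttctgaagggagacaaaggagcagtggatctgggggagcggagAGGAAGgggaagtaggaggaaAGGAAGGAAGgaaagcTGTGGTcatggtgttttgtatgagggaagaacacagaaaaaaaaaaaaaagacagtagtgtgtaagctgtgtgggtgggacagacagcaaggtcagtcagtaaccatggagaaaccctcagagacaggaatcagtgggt
Klra1, chr6:130386825-130387124, minus strand: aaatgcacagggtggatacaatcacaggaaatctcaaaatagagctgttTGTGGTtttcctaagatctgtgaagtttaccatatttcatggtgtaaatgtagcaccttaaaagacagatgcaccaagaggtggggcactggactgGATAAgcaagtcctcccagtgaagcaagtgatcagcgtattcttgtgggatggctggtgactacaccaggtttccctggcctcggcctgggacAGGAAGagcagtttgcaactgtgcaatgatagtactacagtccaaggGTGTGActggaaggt
Klra3, chr6:130337577-130337876, minus strand: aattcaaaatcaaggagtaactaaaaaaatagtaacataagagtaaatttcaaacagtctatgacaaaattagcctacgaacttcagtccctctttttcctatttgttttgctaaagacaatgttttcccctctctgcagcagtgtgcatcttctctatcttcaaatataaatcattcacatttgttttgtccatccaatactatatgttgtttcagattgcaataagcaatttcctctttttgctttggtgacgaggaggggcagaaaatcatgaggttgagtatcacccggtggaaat

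Peaks lay over these promoters to different extents. At Clec2d, which encodes the ligand of the inhibitory receptor NKR-P1B, 267 and 258 of the 300 bases were under a peak in mutant, and 258 and 258 in wild type. Its sequence holds none of the 6 motifs. At Clec12a, an inhibitory lectin of myeloid cells, all 300 bases were covered in every library. Its sequence holds a GATA match 115 bases before the start, a Runx match and a pair of Ets matches. At Klra1 (Ly49A), 293 and 300 bases were covered in mutant and 281 and 286 in wild type. Its sequence holds a GATA match 105 bases before the start, and also a Runx, an Ets and a T-box match. At Clec2i the promoter was fully covered in both mutant libraries and in wild type 2, and 156 of its bases were covered in wild type 1. At Klrb1c, which encodes NK1.1, no printed base was covered: the peak began 873 and 873 bp from the start in mutant and 897 and 868 bp in wild type. GATAA was found in 19 of 38 member promoters (50%), with 25.4% of all 32851 RefSeq promoters as background, and in 4 of 13 Ly49 promoters. The Runx letters were in 10 of 38 (26.3%, background 16.8%), and the Ets letters in 13 of 38 (34.2%, background 35.4%). The E box was in 2 (5.26%, background 16.3%), the Tcf/Lef letters in 9 (23.7%, background 16%) and the T-box letters in 5 (13.2%, background 14.5%). Several genes have more than 1 promoter in the table, overlapping in sequence except at Klra7, and paralogues share sequence, so these promoters are not independent. The background promoters were not matched to the members for base composition, and a match is a description of letters, not of binding.

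Most members had a peak within their windows, often away from the starts. In every library this was a smaller share than among all protein-coding genes. A peak lay in the window of 25 and 26 of 36 members in mutant and of 27 and 28 in wild type. Over all protein-coding genes this was 79.6% and 79.6% in mutant and 82.3% and 81.8% in wild type. All 4 libraries had a peak for 25 members, where 78.9% of all genes did. No library had one for 8 members (Klrb1, Klrc2, Klrc3, Klri1, Klri2, Klrh1, Klra4 and Klra8), where 17% of all genes had none. The windows are of like size, with a median of 24.4 kb for members and 27.2 kb for all genes. The share of the window under peaks had a median of 2.95% and 2.49% over members in mutant, and 2.13% and 2.59% in wild type. Over all genes the medians were 5.83% and 5.65% in mutant and 5.93% and 5.70% in wild type.

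**Figure D1:**
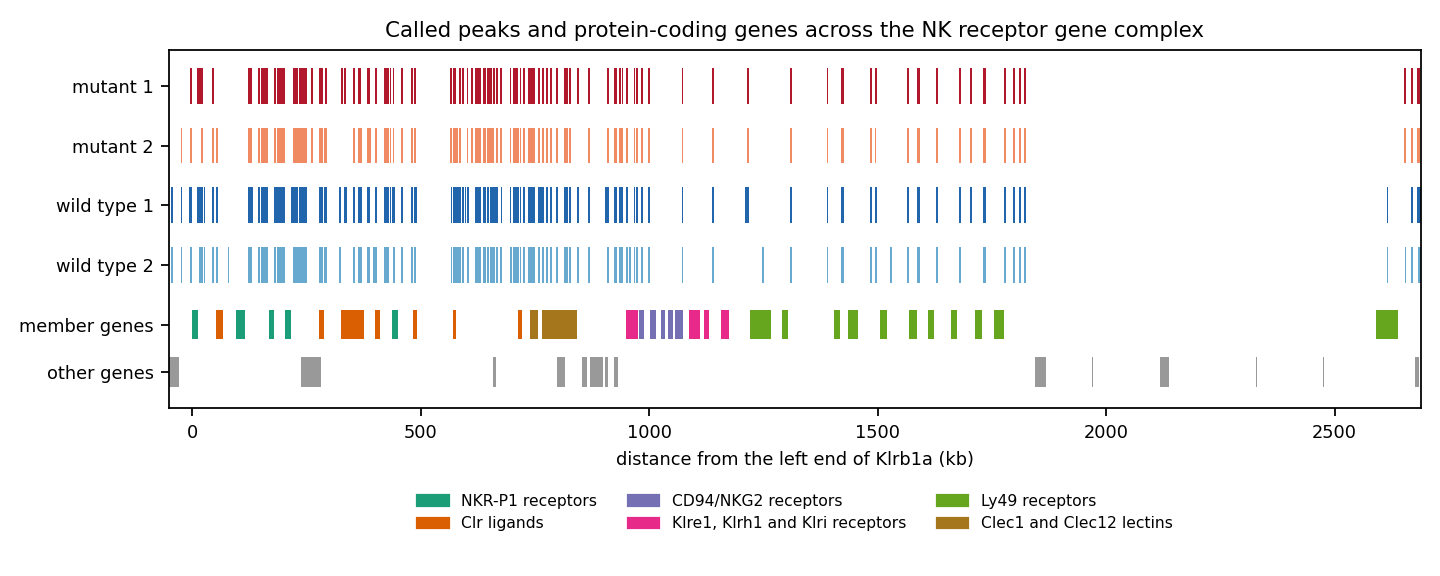
Peaks of each library (rows, peaks drawn at least 4 kb wide to be visible) and protein-coding genes along the complex, by distance in kb from the left end of Klrb1a, with members coloured by family. Peaks are dense around the Clr and Clec1 and Clec12 genes and sparse from the CD94/NKG2 genes through the Ly49 genes, and a stretch of 793 kb before Klra2 has no peak in any library.

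The families differed along the chromosome. Member windows were covered to 3.36% and 3.08% in mutant and to 2.79% and 2.89% in wild type. Windows of the 26 other protein-coding genes of the interval, without bases shared with members, were covered to 5.13% and 5.10% in mutant and to 4.55% and 4.52% in wild type. Members were thus lower than their neighbours in 4 of 4 libraries, with a mean difference of -1.80 percentage points (exact sign-flip permutation p = 0.125, two-sided, adjusted p = 0.375 over 6 tests). A p of 0.125 is the smallest that 4 libraries can give. By the mean over the 4 libraries the best covered neighbour was Cd69, an early activation antigen whose gene lies between Clec2d and Clec2m, with 20.6% and 19.5% in mutant and 18.9% and 13.3% in wild type. The next were Rhno1, Gabarapl1, Fkbp4 and BC035044, with means over the 4 libraries of 17.3%, 16.2%, 13.1% and 10.7%. BC035044 overlaps 3 of the regions counted for Clec2i.

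**Figure D2:**
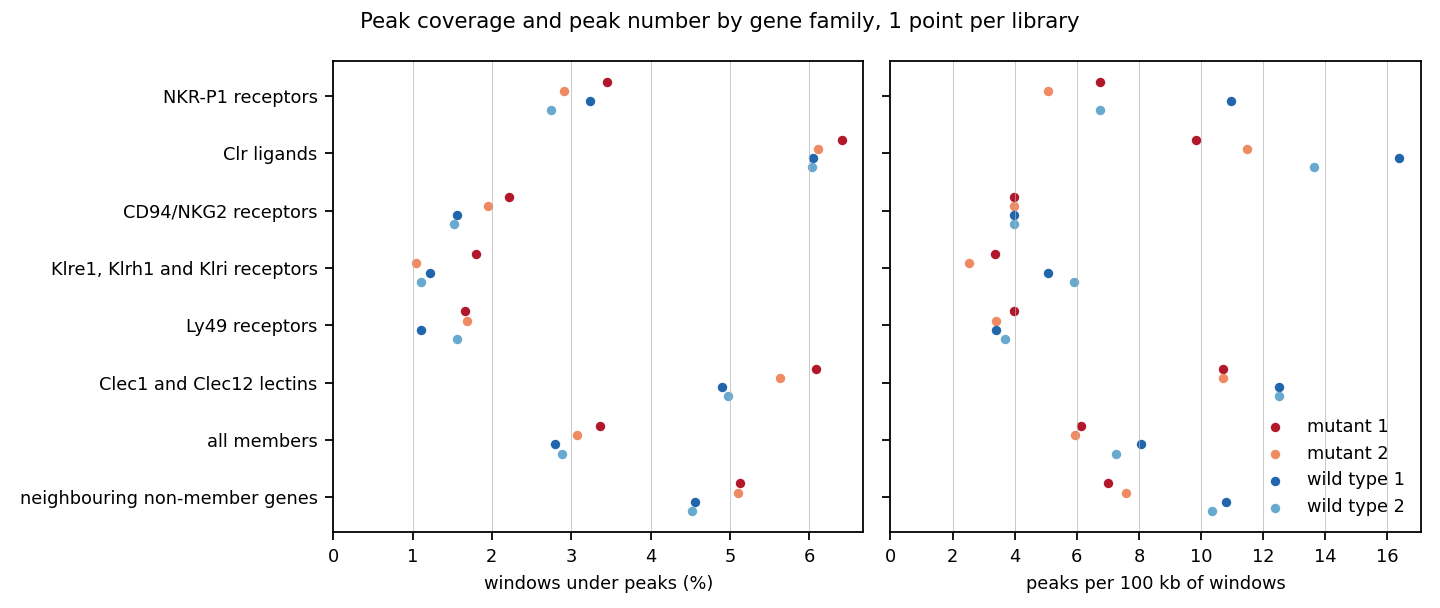
Share of the windows under peaks (left, %) and peaks per 100 kb of windows (right) for each family, all members and neighbouring genes, with 1 point per library. Clr ligands and Clec1 and Clec12 lectins lie at 4.90% to 6.41% covered, and Ly49 and CD94/NKG2 receptors at 1.10% to 2.21%. The Klre1, Klrh1 and Klri receptors lie at 1.04% to 1.79%. Peaks per 100 kb are 6.13 and 5.93 in mutant and 8.08 and 7.26 in wild type over all members.

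The Clr ligands had the highest covered share of the 6 families in every library. Their 7 windows were covered to 6.41% and 6.11% in mutant and to 6.05% and 6.03% in wild type, and held 15 regions called in all 4 libraries. Clec2i, which encodes the Clr-g protein, had the highest share of any member, with 20.7% and 19% in mutant and 15.1% and 17.9% in wild type. Both mutant libraries lay above both wild-type libraries. A region of 749 bp covered its start, with fold 3.40 and 3.24 in mutant and 4.6 and 4.06 in wild type. Clec2m followed with 12.4% and 11.9% in mutant and 11.6% and 12.2% in wild type, and its groups overlap. No start of it was open in any library, but it held a region of 1088 bp inside the gene, with fold 6.37 and 6.22 in mutant and 7.19 and 6.30 in wild type.

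Clec2d had 9.03% and 9.15% of its window covered in mutant and 10.1% and 10.3% in wild type, so both mutant libraries were lower. The region at its start, chr6:129180398-129181203, had fold 6.89 and 6.98 in mutant and 8.09 and 7.78 in wild type. Clec2e had 5.97% and 6.54% covered in mutant and 5.83% and 3.27% in wild type, from a region inside the gene and another beyond its 3′ end. Clec2g, a long gene of 50327 bp, had 3.57% and 3.31% in mutant and 4.2% and 3.50% in wild type. Its start was called in mutant 1 only, through a peak of 161 bp, while 2 regions far inside the gene were called in all 4 libraries. The stronger of them in mutant 1 and wild type 1, of 646 bp, had fold 7.76 and 4.86 in mutant and 12.2 and 4.6 in wild type, so the replicates of each genotype were further apart there than the genotypes. Clec2f had 1.43% and 0.639% in mutant and 1.45% and 1.82% in wild type. Its start, taken as either annotated gene end, was called in wild type 1 only, through a peak of 142 bp. The least covered of the family was Clec2h, with no peak in mutant 1, 0.396% in mutant 2, and 0.472% and 0.704% in wild type. Its only region, of 176 bp at the start, was called in 3 libraries.

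Among the NKR-P1 receptors, 4 of 5 genes had a peak in every library, and Klrb1 had none. Klrb1f, an activating receptor, had the highest share, with 8.51% and 8.85% of its window covered in mutant and 6.62% and 5.85% in wild type. This came mostly from a region of 1966 bp inside the gene, which was 1 peak in each mutant list and was split into separate peaks in each wild-type list. Klrb1c had 3.26% and 2.87% in mutant and 3.40% and 2.83% in wild type, almost all in the region upstream of its start. That region, chr6:128789509-128790171, had fold 7.16 and 6.80 in mutant and 7.99 and 7.43 in wild type. Klrb1b, the inhibitory receptor for Clr-b, had 1.84% and 1.97% in mutant and 2.50% and 2.70% in wild type. Its strongest region lay beyond the 3′ end of the gene, with fold 6.32 and 6.14 in mutant and 7.32 and 6.88 in wild type. Klrb1a had 4.18% and 1.29% in mutant and 4.25% and 2.88% in wild type. The starts of Klrb1a and Klrb1b were each called in wild type 1 only, through peaks of 85 and 72 bp.

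Of the CD94/NKG2 group, Klrd1, Klrk1 and Klrc1 had peaks in all 4 libraries, and Klrc2 and Klrc3 had none. Klrd1 encodes CD94, the common partner of the NKG2 chains encoded by Klrc genes, and Klrc1 encodes the inhibitory chain NKG2A. Klrc2 and Klrc3 encode NKG2C and NKG2E. Klrk1, which encodes the activating receptor NKG2D, had the highest share, with 5.0% and 4.30% covered in mutant and 2.80% and 3.16% in wild type. Its peaks lay beyond the 3′ end, on the Klrd1 side, and the stronger had fold 5.64 and 6.44 in mutant and 10.2 and 8.28 in wild type. This region was 1079 and 863 bp wide in mutant and 490 and 601 bp wide in wild type. Klrd1 had a single region inside the gene with fold 5.60 and 6.66 in mutant and 8.19 and 7.75 in wild type, covering 2.88% and 2.18% in mutant and 2.01% and 1.69% in wild type. Klrc1 had a single region too, within the annotated gene and 1582 bp upstream of the start in the promoter table, with fold 5.59 and 4.04 in mutant and 6.38 and 5.01 in wild type. No start in this group was open in any library.

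The RefSeq promoters of Klrc2 and Klrc3, not shown, are near copies, at 98.3% identity for the closer pair, against a median of 46.4% between promoters of different families. How the authors treated reads that match more than 1 place is not given in the sources used here, and its part in the missing peaks was not tested. Klre1, an NK receptor gene next to Klrd1, had peaks in every library, while Klrh1, Klri1 and Klri2 had none. Klre1 had 5.83% and 3.39% covered in mutant and 3.97% and 3.61% in wild type. Its outer 5′ end carried a peak in all 4 libraries with fold 5.92 and 6.58 in mutant and 8.99 and 7.73 in wild type, but this lies 18870 bp from the start given in the promoter table, so its start was not counted as open.

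**Figure D3:**
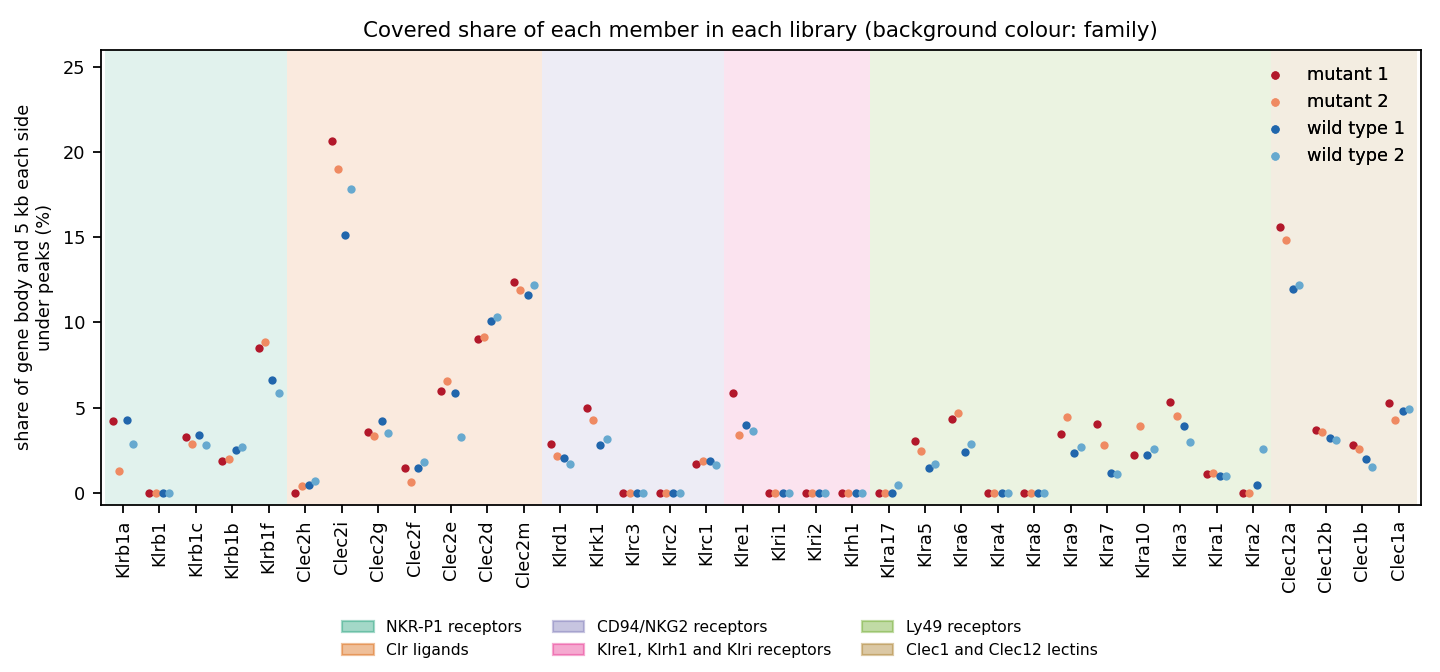
Share of each member's window under peaks (%), with 1 point per library and members grouped by family. Clec2i and Clec12a stand highest at 20.7% and 15.6% in mutant 1, and 8 members lie at 0 in all 4 libraries.

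Of the 11 Ly49 genes, 6 shared a layout, with peaks upstream and not in the gene. All 7 of Klra5, Klra6, Klra9, Klra7, Klra10, Klra3 and Klra1 had peaks in every library. In the first 6 of these, no peak touched the gene body in any library. The regions called in all 4 libraries were an upstream pair in Klra6, Klra9, Klra10 and Klra3, and a single upstream one in Klra5 and Klra7. The centres of the pair were 1776 bp apart at Klra6, 2008 bp at Klra9, 1832 bp at Klra10 and 1771 bp at Klra3. Measured from the outer annotated 5′ end of the gene, the nearer region was centred 3089 bp upstream at Klra6, 2918 bp at Klra10 and 2944 bp at Klra3. The farther region lay at 4866, 4749 and 4715 bp in these 3 genes, and the single one at 4710 bp in Klra5 and 4784 bp in Klra7. Klra9 had its regions at 1406 and 3415 bp from that end, but at 2668 and 4677 bp from the start given in the promoter table. From that start the regions of Klra10 lay farther off too, at 4636 and 6468 bp. By either reference, 1 of these genes thus lay apart from the others. Annotated starts of Ly49 genes differ between transcripts, so the distances are less firm than the spacing.

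**Figure D4:**
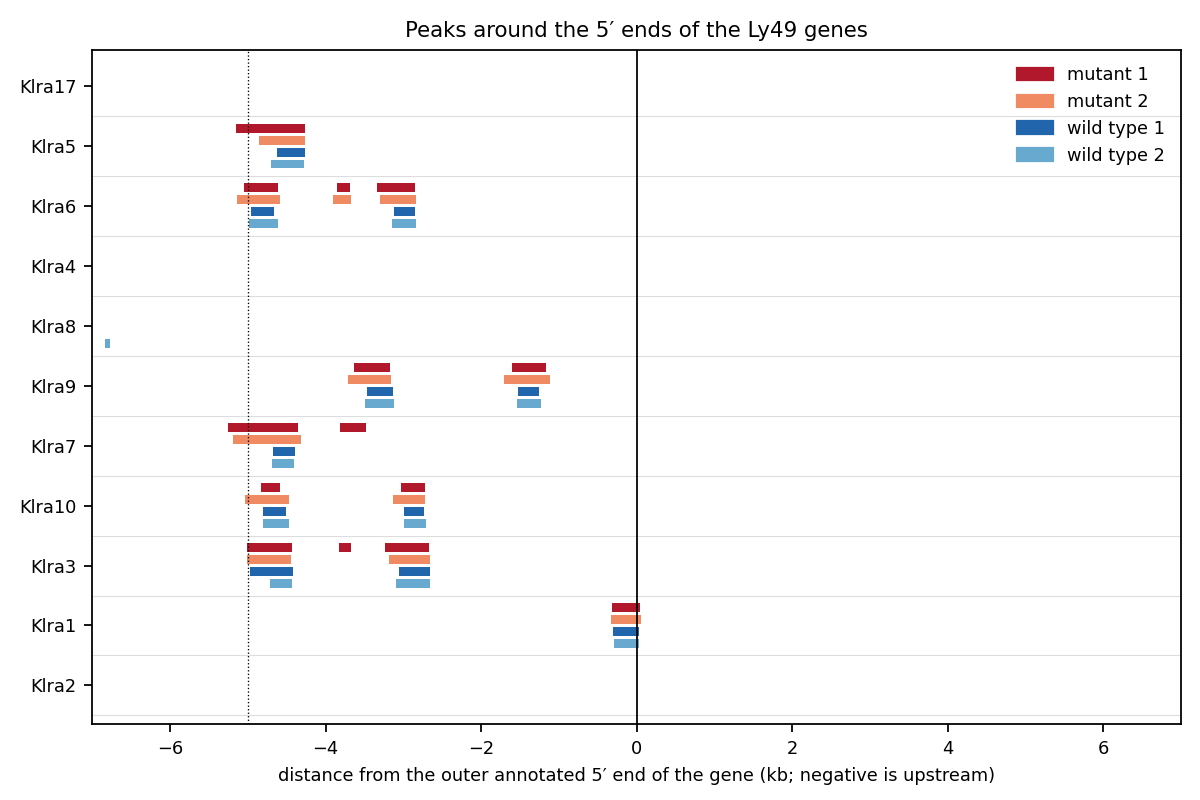
Peaks of the 4 libraries by distance in kb from the outer annotated 5′ end of each Ly49 gene, from 7 kb upstream to 7 kb downstream, with the dotted line at 5 kb upstream. Klra5, Klra6, Klra7, Klra10 and Klra3 have a peak between 4 and 5.3 kb upstream in every library, and Klra4, Klra17 and Klra2 have none in this span.

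Klra3, which encodes Ly49C, had the strongest Ly49 region. Its nearer upstream region, chr6:130340277-130340863, had fold 7.23 and 8.15 in mutant and 11.5 and 9.52 in wild type. The matching region at Klra6 (Ly49F) had fold 4.75 and 6.94 in mutant and 7.80 and 8.69 in wild type, and at Klra10 (Ly49J) 4.63 and 5.85 in mutant and 6.68 and 6.20 in wild type. At Klra9 (Ly49I) it had 5.43 and 5.80 in mutant and 5.66 and 6.21 in wild type. The farther region was weaker in each list at these 4 genes. At Klra3 it had fold 3.07 and 2.73 in mutant and 4.78 and 4.14 in wild type. The single upstream region of Klra5 (Ly49E) had fold 3.86 and 5.42 in mutant and 5.78 and 4.22 in wild type, and that of Klra7 (Ly49G) 3.84 and 3.75 in mutant and 4.55 and 4.42 in wild type.

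Klra1 differed in where its peak lay. Its region covered the annotated start, with fold 4.58 and 5.11 in mutant and 5.02 and 4.15 in wild type. Klra1 is annotated over 22957 bp, while Klra5, Klra6, Klra9, Klra7, Klra10 and Klra3 span 13928 to 15749 bp. The printed Klra1 promoter is at most 49.7% identical to any other Ly49 promoter, close to the 46.4% between families, while Klra3 and Klra9 promoters are 85% identical. Low identity is not particular to Klra1, as the promoter of Klra10, which has the upstream pair, is at most 54.7% identical to any other.

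No peak was called in the windows of Klra4 and Klra8, which encode Ly49D and Ly49H, the activating receptors of the C57BL/6 complex. This grouping was chosen after the values were seen and has no test. Their promoters are 86% identical to each other. Beyond the window, 1 peak of wild type 2 lay between 6 and 7 kb upstream of Klra8. Klra17, which encodes Ly49Q, had no peak in 3 libraries and 1 peak of 257 bp in wild type 2, with fold 2.21. Klra2, which encodes Ly49B and stands apart from the cluster, had a region called only in wild type (below). Ly49 windows were covered to 1.66% and 1.69% in mutant and to 1.10% and 1.56% in wild type. Windows of the other members were covered to 4.32% and 3.86% in mutant and to 3.75% and 3.63% in wild type. Ly49 windows were lower in 4 of 4 libraries, with a mean difference of -2.39 percentage points (exact sign-flip permutation p = 0.125, two-sided, adjusted p = 0.375). A low share was not particular to Ly49 genes. Windows of the Klre1, Klrh1 and Klri group were covered to 1.79% and 1.04% in mutant and to 1.22% and 1.11% in wild type. For the CD94/NKG2 group this was 2.21% and 1.95% in mutant and 1.56% and 1.52% in wild type. Ly49 genes are recent copies of each other, so multiply matching reads could matter here too, and this was not tested.

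Between Klra1 and Klra2 lay a long stretch without peaks. The interval chr6:130429818-131222702 held no peak in any library, for 793 kb from 42.9 kb beyond Klra1 to the Klra2 region, and contains 5 protein-coding genes that are not members.

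The Clec1 and Clec12 lectins, which belong to the Dectin-1 group of myeloid, platelet and endothelial receptors, all had peaks in every library. Clec12a had 15.6% and 14.8% of its window covered in mutant and 12.0% and 12.2% in wild type, with both mutant libraries higher. A region beyond its 3′ end, chr6:129365794-129366376, had the highest lowest fold of all regions in the complex, at 8.59 and 7.42 in mutant and 8.60 and 8.03 in wild type. Clec12b had 3.70% and 3.56% in mutant and 3.21% and 3.08% in wild type. Its annotated span includes Clec1b, and its window shares regions with Clec1b and Clec1a. Clec1b, which encodes the platelet receptor CLEC-2, had 2.79% and 2.54% in mutant and 1.99% and 1.53% in wild type, with no peak on the gene body. Clec1a had 5.25% and 4.30% in mutant and 4.78% and 4.91% in wild type.

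By the lowest fold over the 4 lists, the 10 leading regions called in all of them included 4 of Clr genes and none of the CD94/NKG2 group. After the regions beyond Clec12a and upstream of Klra3 came one beyond the 3′ end of Clec12b, chr6:129375075-129375436, with fold 7.41 and 6.94 in mutant and 7.30 and 7.77 in wild type. The Clec2d start, the Klrb1c upstream region, the Clec2m intragenic region and the region beyond Klrb1b followed. The others lay inside Clec2e (fold 6.06 and 6.63 in mutant, 8.23 and 7.45 in wild type), at the outer end of Klre1, and inside Clec2g (6.25 and 5.81 in mutant, 7.08 and 6.61 in wild type). Of these 10, the Clec2d region alone overlaps a start given in the promoter table.

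Between genotypes, the complex held fewer but wider peaks in mutant. Member windows held 60 and 58 peaks in mutant and 79 and 71 in wild type (means 59 ± 1.41 and 75 ± 5.66, SD, n = 2 each, exact permutation p = 0.333, adjusted p = 0.4). The groups do not overlap, and 0.333 is the smallest p that 2 against 2 libraries allow. The covered share ran the other way, at 3.22% ± 0.199 in mutant and 2.84% ± 0.0662 in wild type (SD, n = 2 each, exact permutation p = 0.333, adjusted p = 0.4). This was not particular to members. Windows of the neighbouring non-member genes were also higher in both mutant libraries, at 5.13% and 5.10%, against 4.55% and 4.52% in wild type. Members with a peak numbered 25.5 ± 0.707 in mutant and 27.5 ± 0.707 in wild type (SD, n = 2 each, exact permutation p = 0.333, adjusted p = 0.4). Members with an open start numbered 7 ± 0 in mutant and 8.5 ± 2.12 in wild type (SD, n = 2 each, exact permutation p = 1, adjusted p = 1). The mutant minus wild-type difference of -1.5 open starts was 0 without wild type 1 and -3 without wild type 2.

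Over the whole genome the mutant lists also held fewer and wider peaks, but the covered length did not separate the genotypes, at 72.3 and 69.3 Mb in mutant and 72.1 and 70.8 Mb in wild type. They held 121022 and 119023 peaks in mutant, with a median width of 444 and 421 bp, and 169255 and 156372 in wild type, with a median of 284 and 302 bp. The shortest peak was 73 and 87 bp in mutant and 64 and 65 bp in wild type. The smallest gap between peaks was 293 and 349 bp in mutant and 257 and 261 bp in wild type. With an equal number of peaks from each list, the members' difference in peak number was -1.5, mutant minus wild type (exact permutation p = 1).

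Of the 28 members with a peak in any library, 14 had a higher covered share in both mutant than in both wild-type libraries, where 30.7% of all such genes did, and 5 had a lower one, where 30.4% did. The 14 included Klra5, Klra6, Klra9, Klra7, Klra3 and Klra1. Among the 14, the largest ratio of mutant to wild-type means was at Klra7, with 4.01% and 2.77% covered in mutant and 1.13% and 1.12% in wild type. Klra6 had 4.34% and 4.68% in mutant and 2.39% and 2.84% in wild type. The 5 lower ones were Clec2h, Klrb1b, Clec2f, Clec2d and Klra2. Of 50 regions of the complex called in all 4 libraries, 29 (58%) were wider in both mutant lists than in both wild-type lists, where 38.8% of all such regions were. For Ly49 regions this was 10 of 11. Neighbouring regions in 1 library are not independent, and the part of the longer joining gap and minimum length in these widths was not tested.

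Region calls seldom differed by genotype. Member windows held 84 regions, of which 50 (59.5%) were called in all 4 libraries, where 56.7% of all regions were. Only 1 region was called in both mutant and no wild-type library, which is 1.92% of the 52 called in both mutant libraries, where 1.75% of all such regions were. It lay between the pair of upstream regions of Klra6, chr6:130030633-130030868, with fold 2.11 and 2.09. Klra3 and Klra7 had a weak peak at a like distance, 3749 and 3644 bp upstream, in mutant 1 only, with fold 1.79 and 2.02.

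The reverse pattern, calls in both wild-type lists and in neither mutant list, was seen at 5 regions, which is 7.94% of the 63 called in both wild-type libraries, where 15% of all such regions were. The widest, chr6:131222703-131224219 inside Klra2, spanned 1517 bp, with 253 bp under a peak of fold 2.12 in wild type 1 and all of it under a peak of fold 3.42 in wild type 2. The others were a 115 bp region inside Klre1 (chr6:129582027-129582141, fold 2.64 and 2.83), a 315 bp region upstream of Clec2g (chr6:128930894-128931208, 2.43 and 2.71), a 426 bp region beyond Clec2i (chr6:128898687-128899112, 2.37 and 2.3) and a 402 bp region beyond Clec2d (chr6:129189842-129190243, 2.22 and 2.28). All were weak next to the 10 leading regions called in every library. Some other regions called in every library were weaker still. A region inside Clec2d had fold 1.59 and 1.56 in mutant and 1.59 and 1.77 in wild type. With an equal number of peaks from each list the counts were 2 only in mutant and 0 only in wild type.

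Other genes of NK receptor signalling were set beside the complex, from a list of 36 genes of which 35 were matched. All 9 adaptor and kinase genes, including Tyrobp (DAP12) and Hcst (DAP10), the adaptors of activating Ly49, NKG2C and NKG2D receptors, had an open start in every library. Hcst was covered to 36.5% and 46.9% in mutant and to 33.7% and 35.5% in wild type. The same held for all 8 matched regulators, among them Tbx21, Eomes and Id2, and for all 5 effector genes, Prf1, Gzma, Gzmb, Nkg7 and Ifng. Nkg7 was covered to 31.2% and 24.3% in mutant and to 21.6% and 21.6% in wild type. These counts stand beside the 66.8% of all protein-coding genes with an open start in every library. Of 7 NK receptor genes outside the complex, 4 had one in every library, which is no more than that share, and Ncr1, which encodes NKp46, had no peak in its window in any. Of 6 ligand genes, 5 had an open start in every library, among them H2-T23, which encodes Qa-1, and H60c had none.

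The labelled cell type was checked against its markers, with the 67.5% and 67.9% of all genes with an open start in mutant and 71% and 70.2% in wild type as background. All 10 DN3 markers, among them Ptcra, Rag1, Il2ra and Cd3e, had an open start in every library, with summed covered shares of 224 and 215 percentage points in mutant and 194 and 192 in wild type. Of 10 NK markers outside the complex, all of them also in the signalling list above, 8 and 9 had an open start in mutant and 9 and 8 in wild type, with sums of 162 and 162 in mutant and 142 and 145 in wild type, and Ncr1 was at 0. Gamma-delta and innate-like markers had 6 of 7 open starts in every library, with sums of 106 and 102 in mutant and 97.2 and 102 in wild type, and none at Il17a. Myeloid markers had 5 and 5 of 8 in mutant and 8 and 7 in wild type, with sums of 88.6 and 81.8 in mutant and 105 and 93.4 in wild type. B cell markers had 4 and 4 of 6 in mutant and 4 and 5 in wild type, with sums of 58.9 and 50.5 in mutant and 49.4 and 52.8 in wild type, and Ms4a1 was at 0. Peaks from a minor population of other cells and peaks in DN3 cells cannot be told apart in these bulk libraries, and the part of other cells in the results was not tested.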

How the data were processed

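ATAC-seq had been run on 4 DN3 libraries, and each had its own broad peak list. The build was mm10 (GRCm38), and MACS2 2.1.1, SAMtools 1.7, Bowtie2 2.3.3.1 and cutadapt 1.16 are named, per the submitters' processing notes. Settings, read filters, any shift of reads and the treatment of multiply matching reads: not given in the sources used here. The deposited score of a peak is its −log10 q times 10, truncated. The deposited fold is a ratio of pileup to local background, and the deposited −log10 p and −log10 q describe a peak within its own library. The lists hold no counts, so depth is unknown and neither a count test nor an interval was possible. Analysis kept the autosomes, X and Y.

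Genes, starts and promoters came from RefSeq tables (GRCm38.p6). Starts were in the table for 32 of 36 members and for 79.9% of all genes. Exons and introns were not annotated, and protein sequences were not used here. A library had a region if a peak overlapped it by 1 bp or more. Covered share is the percent of a window's bases under peaks. Genotypes were compared with the exact two-sided permutation test, and windows within libraries with the exact sign-flip test, adjusted by Benjamini-Hochberg over 6 tests. Alternatives were a −log10 q of 5 or more, a fold of 3 or more, a common minimum length and joining gap, equal numbers of peaks, 50% overlap, other windows, and each library left out. Promoter identity came from global alignment. The code was tested on simulated data with known answers. Genes described singly were those with an open start in any library, those with a region called in 1 genotype only, the best and least covered of each family and those without peaks. Regions given were the 10 with the highest lowest fold and all called in 1 genotype only. Further members were added to complete each family. Members, lists and tests were chosen with earlier results of these data known. Python 3.11.15, numpy 2.4.6, pandas 2.3.3 and matplotlib 3.10.9 were used.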

Additional observations from a re-analysis of the deposited data

How the results depend on the processing

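The 6 tested differences kept their sign, or reached 0, under every alternative that gave a value, and the smallest p these designs allow lies above 0.05, so no call could be lost. The 50% overlap gives no covered share. The mutant minus wild-type difference in peak number was -16, and -20 to -12 with 1 library left out. That in covered share was 0.380 percentage points, and 0.24 to 0.521 with 1 library left out. That in members with a peak was -2 (-2.5 to -1.5 with 1 library left out), and that in open starts -1.5 (-3 to 0). Under the other alternatives, the difference in peak number lay between -19.5 (10 kb window) and -1.5 (equal numbers of peaks). Covered share lay between 0.232 (fold of 3 or more) and 0.639 percentage points (equal numbers of peaks). Members with a peak lay between -2 and -0.5 (−log10 q of 5 or more), and open starts between -1.5 and 0 (equal numbers of peaks). With only the starts in the promoter table, an alternative chosen after seeing the data, the difference in open starts was -1. Regions called only in mutant numbered 1, but 0 on gene bodies alone, with peaks of fold 3 or more, with peaks of −log10 q of 5 or more or after equalising minimum length and joining gap, 2 with equal numbers of peaks, 7 with 50% overlap and 1 to 5 with 1 library left out. Regions called only in wild type numbered 5, but 2 on gene bodies alone, with peaks of fold 3 or more or of −log10 q of 5 or more, 3 after equalising minimum length and joining gap, 0 with equal numbers of peaks and 9 to 13 with 1 library left out, which raises them by construction. For the other changes the cause was not tested. Of 360 recomputed covered shares of single members, 52 moved by more than the SD over libraries. With the replicate number as a block, the differences of -16 peaks and 0.380 percentage points had an exact sign-flip p of 0.5, the smallest that 2 pairs allow. Deviations of same-numbered libraries from their genotype means had a correlation of -0.0786 over 18156 genes, so the numbers were not taken as pairs. The lack of read counts limits every absence to not detected.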
